A study of Mus musculus with 4 samples.

Results

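The 9 genes described here carry glutamate and glutamine across membranes or make and break them down: Slc1a2, Slc1a3, Slc1a4, Slc1a5, Glul, Glud1, Slc38a1, Slc38a2 and Slc38a3. They were taken by symbol from 25261 Ensembl gene identifiers, and all 9 were found and passed the filter on low values. The set was chosen by symbol with its fold changes in the shOGT against ctrl comparison already known, among them those of Glul and Slc1a2. Their fold changes and adjusted p-values are therefore given as a description, and nothing is supported with the number of them that passed the test. RNA was sequenced from neural stem cells of adult C57BL/6 mice, aged 8 weeks, which divide and can form both neurons and glia. The cells of all 4 libraries had received a lentivirus. It carried a scrambled short hairpin RNA in the 2 ctrl libraries and a hairpin against mouse Ogt in the 2 shOGT libraries. A short hairpin RNA lowers the transcripts it pairs with, and Ogt encodes O-GlcNAc transferase, which links a sugar, N-acetylglucosamine, to proteins of the nucleus and cytoplasm. The labels give neither the promoter that drives the hairpin nor the number of hairpins or animals, nor whether same-group libraries are separate cultures. The p-values therefore reflect the spread of these 4 samples alone, and that spread may be technical.

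In the brain, glutamate released at synapses is cleared mainly by astrocytes and radial glia through the sodium-driven carriers GLT-1 (Slc1a2) and GLAST (Slc1a3). Glutamine synthetase (Glul) joins the glutamate to ammonia, glutamine leaves the glial cell through system N carriers such as SNAT3 (Slc38a3), and neurons take it up through system A carriers such as SNAT1 (Slc38a1) and SNAT2 (Slc38a2). Glutamate dehydrogenase (Glud1) instead feeds glutamate into the citric acid cycle, and ASCT1 (Slc1a4) and ASCT2 (Slc1a5) exchange neutral amino acids, ASCT2 with a preference for glutamine. Slc1a3 is a standard marker of radial glia and of neural stem cells.

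The targeted gene, Ogt, had values of 4112 and 4138 in ctrl against 3379 and 3516 in shOGT, so that its mean fell by 16.4% (limma adjusted p = 0.00876). The libraries held between 15697508 and 17753976 reads assigned to genes, if 1 step between the deposited values is taken as 1 read. Of the 10 listed neural stem cell markers all were found, with a summed signal of 88115 to 91056 in ctrl and 83326 to 84522 in shOGT. Of these 2 fell, among them Fabp7 from 29997 ± 642 to 21426 ± 1427, and 8 did not pass, including Vim at 31049 ± 527 and 33097 ± 479 and Nes at 13681 ± 698 and 14676 ± 1017; the fall of Fabp7 is larger than that of the sum. The 7 astrocyte markers summed to 25633 to 26239 in ctrl and 23988 to 25968 in shOGT. The 8 neuron markers summed to 15891 to 16392 and 17789 to 17973, nearly all of it Map2. Map2 was called higher (log2 fold change 0.15, limma adjusted p = 0.0313) and the other 7 did not pass. Among those, Dcx was lower in shOGT, at 24.2 ± 7.13 against 53.7 ± 18.1 in ctrl (limma adjusted p = 0.0894). The 7 oligodendrocyte lineage markers summed to 2987 to 3067 and 2273 to 2679. Of 10 microglia and macrophage markers 6 had a row and their sum was 8.93 to 11.0 in ctrl and 9.57 to 13.2 in shOGT. The 5 endothelial and mural cell markers with a row summed to 31.9 to 44.6 and 28.7 to 34.9, and the 3 fibroblast markers with a row to 21.8 to 21.9 and 15.1 to 21.3. The 4 ependymal markers with a row summed to 656 to 700.3 and 775 to 813. In such bulk libraries fewer cells of a type and less RNA per cell cannot be told apart.

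Within the set, the changes ran in both directions. Slc1a2 and Slc38a2 fell, Glul and Slc38a3 rose, and Slc1a3, Slc1a4, Slc1a5, Glud1 and Slc38a1 did not pass the test. A gene was called when its Benjamini-Hochberg adjusted p, from limma fitted to log2(value + 1) of all 21829 tested genes, was under 0.05. By that rule 4.86% of all tested genes were called, 1.96% as higher and 2.90% as lower, and 13.9% of the 4262 tested genes with a mean value of at least 1000, a level that 8 of the 9 genes reached. The shOGT values lay wholly on one side of the ctrl values for 8 of the 9 genes, above for 2 and below for 6. They did so for 49.3% of all tested genes, with 25% above and 24.3% below. That share was not computed for genes of like level. The median log2 fold change of the 9 was -0.06, beside 0.001 over all tested genes.

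**Figure D1:**
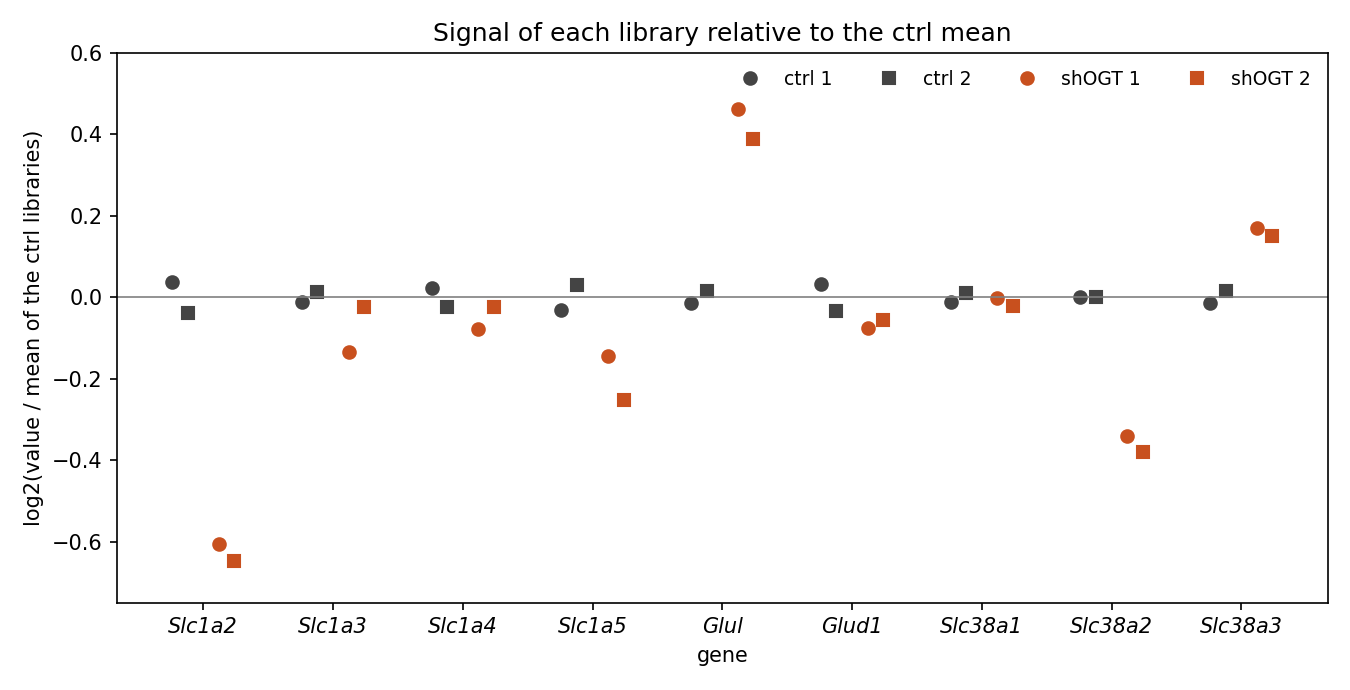
Log2 ratio of the deposited value to the mean of the ctrl libraries (y axis) for the 9 genes (x axis), with ctrl in grey, shOGT in orange, replicate 1 as circles and replicate 2 as squares. Both shOGT libraries sit far below ctrl for Slc1a2 and Slc38a2 and above it for Glul and Slc38a3, while the groups overlap for Slc38a1.

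The levels of the 9 genes spanned about 2 orders of magnitude. Expressed as deposited signal per kilobase of merged exons, Slc1a3 was the most abundant in ctrl, at 5810 ± 69 (SD, n = 2), followed by Glud1 at 2351 ± 76.2 and Glul at 1455 ± 20.5. Slc38a3 had a level per kilobase of 720.4 ± 10.2, Slc1a4 one of 619.9 ± 13.8, Slc38a2 one of 267.5 ± 0.0539 and Slc1a2 one of 263 ± 9.99. Slc38a1, at 166 ± 1.90, and Slc1a5, at 55.2 ± 1.65, came last. Among neighbours in this order only Slc38a2 and Slc1a2 overlapped between the ctrl libraries. In shOGT the order was the same, but all neighbours were apart. The gap between Glud1 and Glul narrowed, from a ratio of 1.62 in ctrl to 1.15 in shOGT, and Slc1a2 came down to 171 ± 3.30 per kilobase, next to Slc38a1 at 164 ± 1.47. The place of Slc1a2 depends on the length used: per kilobase of the longest protein-coding transcript, a choice made after the data had been seen, its ctrl level was 298 and that of Slc38a1 was 393.

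**Figure D2:**
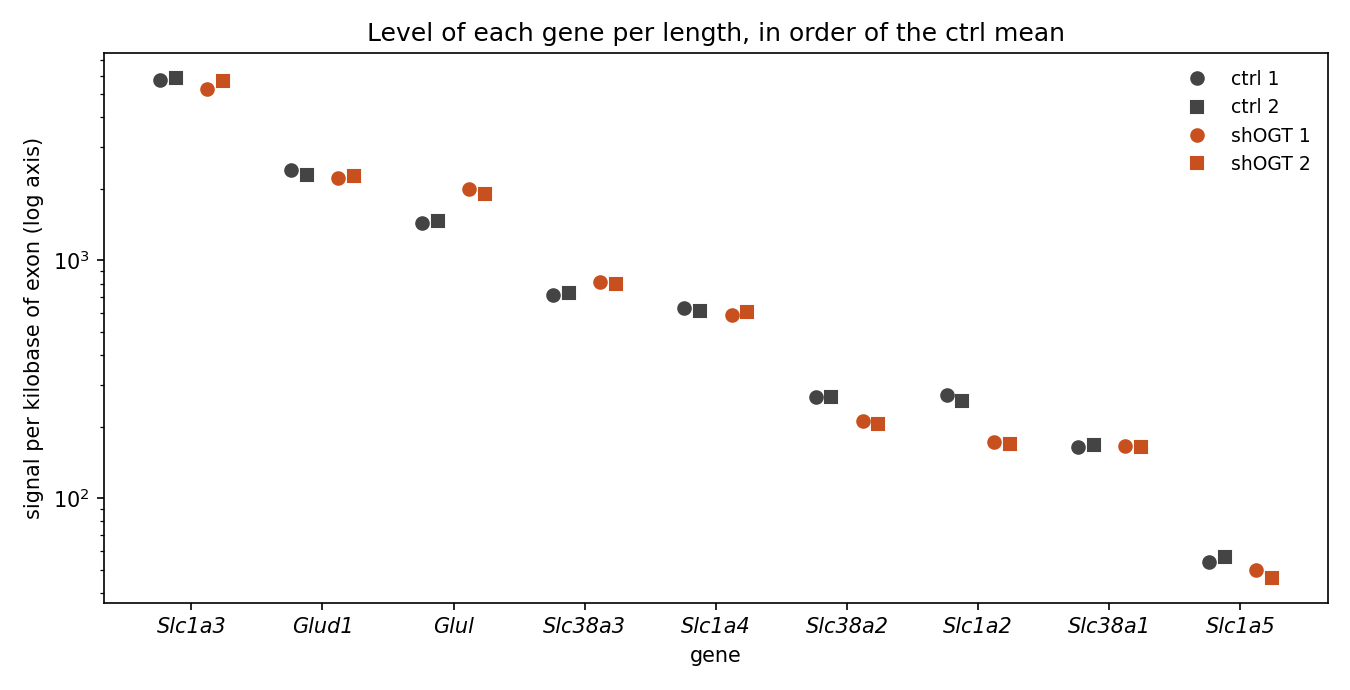
Deposited signal per kilobase of merged exons (y axis, log scale) of the 9 genes in each of the 4 libraries, ordered on the x axis by the ctrl mean; ctrl is grey, shOGT orange, circles are replicate 1 and squares replicate 2. Slc1a3 stands highest at 5289 to 5859 per kilobase and Slc1a5 lowest at 46.3 to 56.3.

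Slc1a2 encodes GLT-1, the main glutamate carrier of mature astrocytes. Its deposited values were 3552 and 3367 in ctrl and 2271 and 2210 in shOGT. Both shOGT libraries were thus well below both ctrl libraries, and the replicates of a group differed by much less than the groups. The ctrl mean was 3460 ± 131 and the shOGT mean 2240 ± 43.4 (SD, n = 2), so that the level fell by 35.2%, and the log2 fold change was -0.63 ± 0.05 (SE; 95% interval -0.73 to -0.52; limma adjusted p = 0.00053). Among the 4262 tested genes with a mean of at least 1000 this was the 10th largest fall. The gene (ENSMUSG00000005089) lies on the plus strand of chromosome 2, at 102658659 to 102790784 on GRCm38, and is protein-coding. The antisense gene Gm13872 shares 189 bases with its exons, or 1.44% of them, and reads of that stretch can belong to either gene unless strand was used in counting, which is not stated.

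Slc1a3, the gene of GLAST, was the 11th most abundant of the 25261 genes by mean signal, and it alone made up 60.2% to 62.8% of the summed signal of the 9 genes. Both figures use signal not divided by length. Per kilobase of merged exons, Slc1a3 ranked 72nd in ctrl among 16216 protein-coding genes. It measured 49184 and 50018 in ctrl, against 45150 and 48775 in shOGT. The shOGT values were the lower ones, but shOGT 1 and shOGT 2 differed from each other by more than shOGT 2 differed from ctrl. The log2 fold change was -0.08 ± 0.04 (95% interval -0.16 to 0.005; limma adjusted p = 0.283), and without shOGT 1 it was -0.02. Slc1a3 (ENSMUSG00000005360) is protein-coding and lies on the minus strand of chromosome 15, at 8634124 to 8710764.

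The ratio of the 2 glutamate carriers is described next, with the fall of Slc1a2 known when the set was chosen. Per kilobase of merged exons, Slc1a3 exceeded Slc1a2 by a factor of 21.3 and 22.9 in ctrl and of 30.6 and 34.0 in shOGT. The size of this factor, and the share and sum that follow, depend on the length used. Per kilobase of the longest protein-coding transcript, the ctrl levels were 11915 for Slc1a3 and 298 for Slc1a2. The relative change of the factor between groups does not depend on it, since the same lengths divide both groups. The share of Slc1a2 in the summed level of both was 4.34% ± 0.207 in ctrl and 3.01% ± 0.216 in shOGT (SD, n = 2). Because Slc1a3 dominates, the summed level of both carriers differed by -6.62% in shOGT, at 5672 ± 297 against 6074 ± 59 per kilobase. The shOGT libraries were on one side of the ctrl libraries for each of these measures, and an exact permutation test of 2 against 2 cannot reach 0.05, so that no p is given for them.

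The neutral amino acid exchangers of the same gene family did not pass the test. Slc1a4 measured 2472 and 2396 in ctrl, against 2306 and 2393 in shOGT, with shOGT 2 just under the lower ctrl library. Its log2 fold change was -0.05 ± 0.05 (95% interval -0.15 to 0.05; limma adjusted p = 0.598). Slc1a5 measured 225 and 235 in ctrl, against 208 and 193 in shOGT, the lowest level of the 9 genes, and its log2 fold change was -0.20 ± 0.10 (95% interval -0.43 to 0.04; limma adjusted p = 0.349). Its values were 226 and 237 steps in ctrl and 196 and 205 in shOGT. These are reads only if 1 step is 1 read, which the sources do not state for any library. Slc1a4 (ENSMUSG00000020142) is at 20302180 to 20332713 on the minus strand of chromosome 11 and Slc1a5 (ENSMUSG00000001918) at 16781340 to 16798274 on the plus strand of chromosome 7.

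Glul, the gene of glutamine synthetase, went the other way. Its values were 4786 and 4882 in ctrl and 6662 and 6330 in shOGT. Both shOGT libraries were higher than both ctrl libraries, and the mean rose by 34.4%, from 4834 ± 68.3 to 6496 ± 235 (SD, n = 2 each). The log2 fold change was 0.43 ± 0.04 (95% interval 0.34 to 0.51; limma adjusted p = 0.00114), the 22nd largest rise among the tested genes with a mean of at least 1000. Glul (ENSMUSG00000026473) is protein-coding and lies on the plus strand of chromosome 1, at 153899944 to 153909723. Its exons share 116 bases with Teddm2 on the other strand and 93 bases with the microRNA gene Mir8114, or 3.49% and 2.80% of their length.

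Glud1, glutamate dehydrogenase, measured 10126 and 9673 in ctrl, against 9400 and 9525 in shOGT. The shOGT libraries were lower by less than the gap between the ctrl libraries, and the log2 fold change was -0.06 ± 0.04 (95% interval -0.15 to 0.02; limma adjusted p = 0.367). Glud1 (ENSMUSG00000021794) lies on the plus strand of chromosome 14, at 34310727 to 34345265. Its processed pseudogene Glud-ps, on chromosome 7, measured 25.9 and 33.7 in ctrl, against 26.6 and 33.9 in shOGT, so that reads placed on that copy were few beside those of Glud1. Per kilobase of merged exons, Glul exceeded Slc1a2 by a factor of 5.32 and 5.73 in ctrl and of 11.6 and 11.3 in shOGT.

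**Figure D3:**
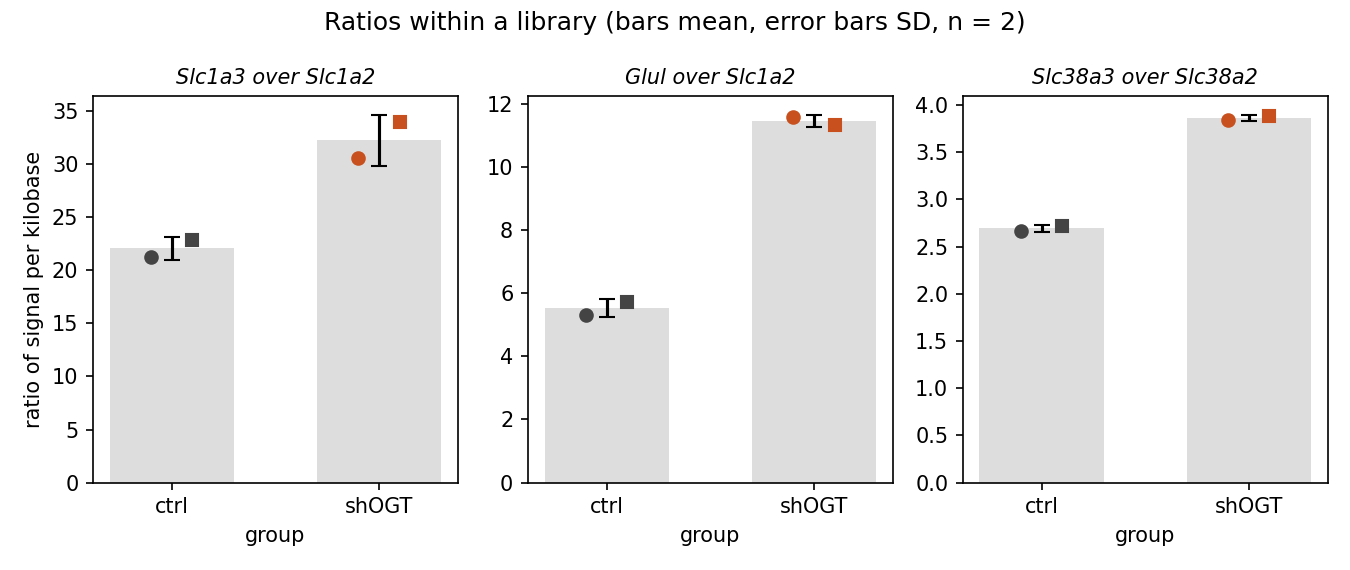
Ratio of signal per kilobase of merged exons within each library (y axes) for 3 pairs of genes, by group (x axes). Bars give the mean, error bars the SD (n = 2) and points the libraries. The size of each ratio depends on the length used for each gene. The mean ratios were 22.1 in ctrl and 32.3 in shOGT for Slc1a3 over Slc1a2, 5.53 and 11.5 for Glul over Slc1a2, and 2.69 and 3.86 for Slc38a3 over Slc38a2.

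The 3 glutamine carriers of the SLC38 family gave 3 different patterns. Slc38a2, a system A carrier that many cells raise when amino acids are short, measured 2365 and 2364 in ctrl, against 1867 and 1817 in shOGT. The groups were far apart beside the gap between replicates, so that the mean fell by 22.1%, with a log2 fold change of -0.36 ± 0.04 (95% interval -0.46 to -0.26; limma adjusted p = 0.00327). Slc38a1, the other system A carrier, measured 2835 and 2882 in ctrl, against 2853 and 2817 in shOGT. These values overlapped, and the log2 fold change was -0.01 ± 0.04 (95% interval -0.10 to 0.08; limma adjusted p = 0.913). The 2 genes are neighbours on the minus strand of chromosome 15, with 44478 bases between them: Slc38a1 (ENSMUSG00000023169) at 96571418 to 96642913 and Slc38a2 (ENSMUSG00000022462) at 96687392 to 96699730.

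Slc38a3, the system N carrier through which glia release glutamine, measured 3764 and 3840 in ctrl, against 4279 and 4217 in shOGT. Both shOGT libraries were higher, by 11.7% in the mean, and the log2 fold change was 0.16 ± 0.04 (95% interval 0.07 to 0.25). This gene passed narrowly (limma adjusted p = 0.0467), and with a pseudocount of 0.5 it did not (adjusted p = 0.0523). Slc38a3 (ENSMUSG00000010064) lies on the minus strand of chromosome 9, at 107650634 to 107669530. Per kilobase of merged exons, Slc38a3 exceeded Slc38a2 by a factor of 2.67 and 2.72 in ctrl and of 3.84 and 3.89 in shOGT. The summed level of the 3 carriers per kilobase was 1154 ± 12.1 in ctrl and 1178 ± 13.9 in shOGT, a difference of 2.09%. The size and direction of this difference depend on the lengths used, since the 3 genes moved differently and the lengths set their weights. For Slc38a1 the merged exons hold 17236 bases and the longest protein-coding transcript 7266.

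Each of the 4 calls rested on all 4 libraries. Leaving out any 1 library left 0 called genes in limma, of these 9 or of all genes, although 4 to 5 of the 9 had an unadjusted p under 0.05, with an adjusted p of 0.286 to 0.308 for Slc1a2 and Glul, 0.286 to 0.315 for Slc38a2 and 0.297 to 0.414 for Slc38a3. The fold changes moved little: over those fits the log2 fold change of Slc1a2 was -0.66 to -0.59, that of Glul 0.39 to 0.46, that of Slc38a2 -0.38 to -0.34 and that of Slc38a3 0.15 to 0.17.

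Promoter sequences of 6 of the 9 genes were found in RefSeq (GRCm38.p6). The 250 bases before the annotated start are shown for a gene that rose, one that fell and the most abundant one, so that their base composition can be compared. Each is written 5′ to 3′ on the strand of the gene, with capitals marking any match to 6 motifs named after the sequences, searched on both strands. The Slc1a2 entry is not shown because its start lies 47779 bases inside the gene as GENCODE draws it.
Glul, chr1:153899679-153899928, plus strand: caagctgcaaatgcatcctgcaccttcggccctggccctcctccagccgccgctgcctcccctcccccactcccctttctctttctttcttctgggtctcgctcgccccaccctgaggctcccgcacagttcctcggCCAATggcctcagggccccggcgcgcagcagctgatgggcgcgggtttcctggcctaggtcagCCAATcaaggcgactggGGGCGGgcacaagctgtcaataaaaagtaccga
Slc38a2, chr15:96699729-96699978, minus strand: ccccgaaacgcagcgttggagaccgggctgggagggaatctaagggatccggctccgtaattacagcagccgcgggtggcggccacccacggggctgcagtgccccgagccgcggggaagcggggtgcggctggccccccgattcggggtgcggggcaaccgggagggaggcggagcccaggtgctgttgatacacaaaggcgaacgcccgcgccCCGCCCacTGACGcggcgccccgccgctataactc
Slc1a3, chr15:8710808-8711057, minus strand: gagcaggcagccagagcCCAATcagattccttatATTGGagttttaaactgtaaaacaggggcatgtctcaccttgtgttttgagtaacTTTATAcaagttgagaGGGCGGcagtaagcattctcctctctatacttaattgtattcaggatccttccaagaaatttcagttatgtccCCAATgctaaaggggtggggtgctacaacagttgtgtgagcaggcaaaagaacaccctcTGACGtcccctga
The Glul window had 64.8% G and C and 15 CpG pairs, that of Slc38a2 72% and 30, and that of Slc1a3 44.8% and 2, beside medians of 52.4% and 6 over 32851 promoters. CCAAT, the sequence bound by NF-Y, was found 2 times in Glul, 3 times in Slc1a3 and 0 times in Slc38a2, and in 33.9% of all promoters. GGGCGG, the GC box, was found once in each of these windows and in 32.7% of all promoters. TATAAA was found once in Slc1a3 and in 12.4% of all promoters, and TGACG, a part of the cAMP response element, once in Slc38a2, once in Slc1a3 and in 17.8%. CACGTG, an E box, and TGGGAA, the core bound by Rbpj, were in none of the 3 windows, and in 6.02% and 21.6% of all promoters. Of the windows not shown, that of Slc1a4 held TGGGAA and TGACG 1 time each, CCAAT 2 times and GGGCGG 3 times. That of Glud1 held GGGCGG 3 times and no other of the 6 motifs. The Slc1a2 window is left out of this count because of its start.

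The rest of glutamate and glutamine handling was described with 11 lists that do not contain the 9 genes. Of 90 tested genes on them, 6 rose and 7 fell, beside 4.86% called over all tested genes. Of the 41 with a mean of at least 1000, 10 were called, beside 13.9% of all tested genes at that level. Their median log2 fold change was 0.03, beside 0.001 over all tested genes. The shOGT and ctrl values did not overlap for 60 of the 90, beside 49.3% of all tested genes. That share was not computed for genes of like level, so the 2 cannot be compared at equal signal. The listed genes Slc1a7, Slc17a6, Slc38a4, Slc38a8, Slc38a11, Slc6a14 and Slc32a1 had no row under these symbols among the 25261 identifiers. Every identifier with a row had signal in at least 1 library, and whether the missing genes were undetected is not stated.

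Among the other carriers of glutamate in the plasma membrane and in vesicles, 1 of 6 rose and 0 fell. Slc3a2, the heavy chain that the cystine-glutamate exchanger and the large neutral amino acid exchangers share, measured 3361 and 3278 in ctrl, against 4055 and 3987 in shOGT, with no overlap (log2 fold change 0.28 ± 0.04; limma adjusted p = 0.00599). Slc7a11, the light chain of the cystine-glutamate exchanger, measured 533 and 547 against 454 and 521 and did not pass (limma adjusted p = 0.373). Slc1a1, the neuronal glutamate carrier, was low, at 74.8 and 85.3 in ctrl and 75.5 and 67.9 in shOGT, and shares 31.9% of its exon bases with a gene on the other strand. The vesicular carriers Slc17a7 and Slc17a8 stayed between 1.98 and 13.2 in all libraries.

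No gene among the 4 mitochondrial glutamate and aspartate carriers, the 5 other SLC38 carriers, the 8 large neutral amino acid exchangers and the 12 genes of transaminases and related enzymes passed the test in limma, and 9 of these 29 had an unadjusted p under 0.05, as had 4214 (19.3%) of all tested genes. The smallest p in each list belonged to Slc25a13, a mitochondrial aspartate-glutamate carrier (log2 fold change 0.24 ± 0.13), Slc38a6 (0.35 ± 0.12), Slc7a5, the large neutral exchanger LAT1 (0.15 ± 0.05), and Oat, ornithine aminotransferase (-0.23 ± 0.06; limma adjusted p = 0.0514). Gpt2, the mitochondrial alanine transaminase, measured 7244 and 7366 in ctrl, against 8789 and 7870 in shOGT (limma adjusted p = 0.0669). The gene next in order had a log2 fold change of 0.19 ± 0.10 for the mitochondrial carriers (Slc25a22), -0.13 ± 0.05 for the SLC38 carriers (Slc38a10) and 0.11 ± 0.06 for the exchangers (Slc7a6).

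In GABA synthesis and breakdown 2 of 6 genes rose and 0 fell. Abat, GABA transaminase, which passes the amino group of GABA on to form glutamate, measured 3006 and 3047 in ctrl, against 3909 and 3741 in shOGT (log2 fold change 0.34 ± 0.04; limma adjusted p = 0.00327). Slc6a11, a GABA carrier of astrocytes, measured 9879 and 9988 against 11989 and 10988 (0.21 ± 0.04; adjusted p = 0.0268). Both genes were higher in both shOGT libraries, with the 2 shOGT values of Slc6a11 further apart than the ctrl values.

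Of 6 genes of proline and glutamate semialdehyde, 1 fell. It was Pycrl, a pyrroline-5-carboxylate reductase, at 780 and 755 in ctrl and 559 and 572 in shOGT (log2 fold change -0.44 ± 0.06; limma adjusted p = 0.0066). Pycr1, another of these reductases, measured 188 and 196 against 144 and 130.1 and missed the threshold (limma adjusted p = 0.0513). Of 10 glutamine amidotransferases, which use glutamine as a nitrogen donor, 1 rose: Pfas, of purine synthesis, at 1800.1 and 1845 in ctrl and 2224 and 2117 in shOGT (0.25 ± 0.05; adjusted p = 0.019). Gfpt1, which opens hexosamine synthesis and so supplies the sugar that Ogt attaches, measured 1862 and 1765 against 1953 and 1940 (limma adjusted p = 0.282).

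Of 10 genes that use glutamate to make glutathione or N-acetylaspartylglutamate, or that break these down, 2 fell and 0 rose. Ggt7, of the gamma-glutamyltransferase family, measured 606 and 588 in ctrl, against 413 and 419 in shOGT (log2 fold change -0.52 ± 0.07; limma adjusted p = 0.00467). Rimklb, which joins glutamate to N-acetylaspartate, measured 799 and 734 against 606 and 548 (-0.41 ± 0.08; adjusted p = 0.0174). The values of both genes did not overlap between groups, and Ggt7 shares 6.04% of its exon bases with Acss2 on the other strand. Among 8 binding partners and regulators of the SLC1 carriers 2 fell and 0 rose: Arl6ip5, which binds the neuronal carrier Slc1a1 and lowers its activity, from 1225 ± 12.3 to 960.1 ± 76.7 (-0.35 ± 0.06; adjusted p = 0.0163), and Arl6ip1, from 10680 ± 265 to 9348 ± 16.8 (-0.19 ± 0.03; adjusted p = 0.0145).

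**Figure D4:**
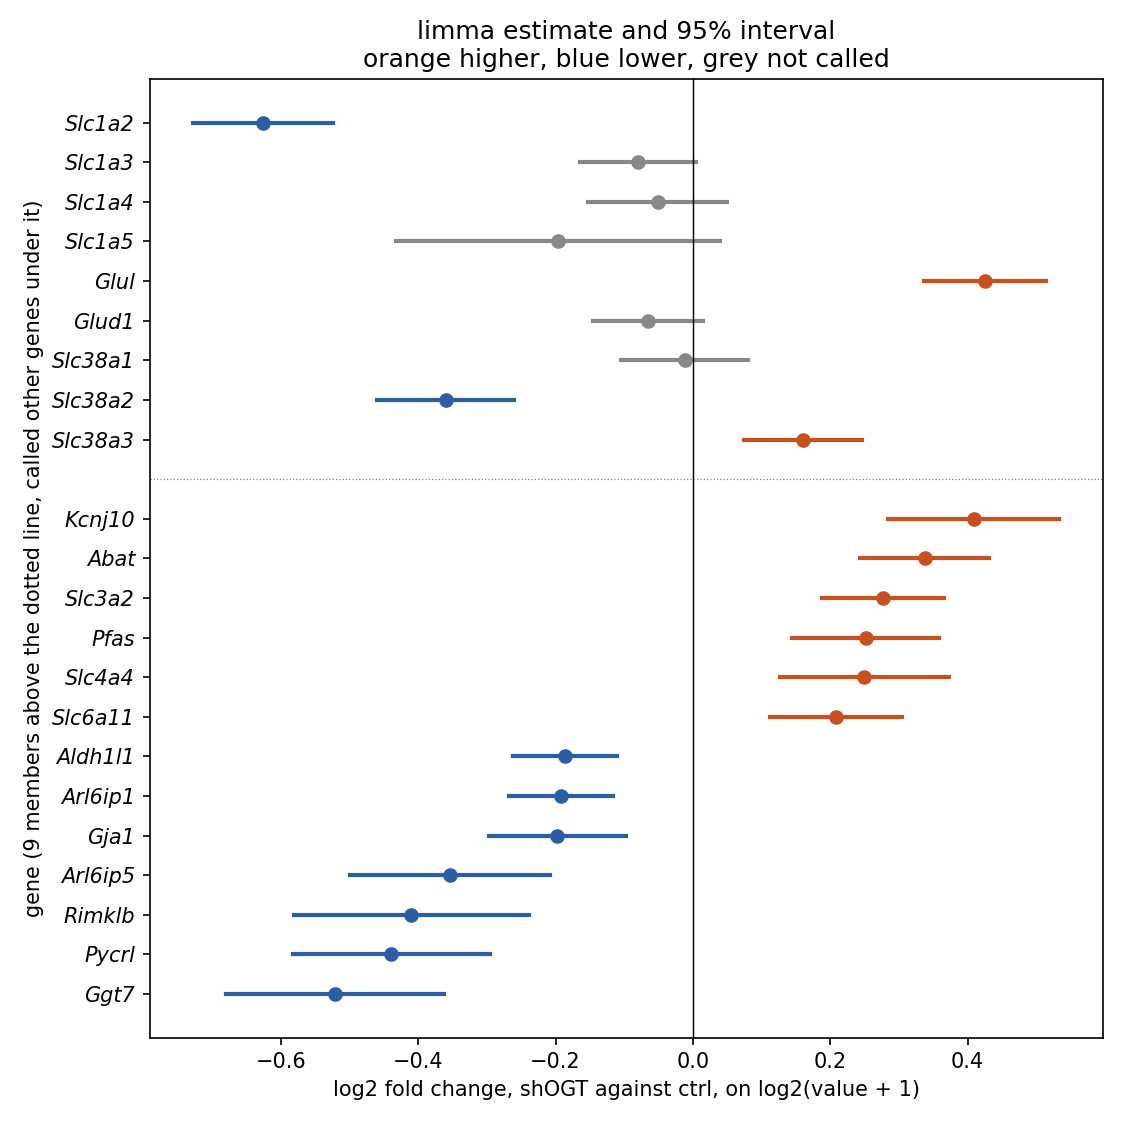
Log2 fold change of shOGT against ctrl on the log2(value + 1) scale (x axis) with limma's 95% interval, for the 9 genes above the dotted line and the 13 called genes of the other lists under it (y axis); orange is higher, blue lower and grey not called. Slc1a2, at -0.63, lies furthest from 0, and the called genes of the other lists range from -0.52 for Ggt7 to 0.41 for Kcnj10.

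Astrocyte genes that work beside glutamate uptake also moved both ways, with 2 of 15 higher and 2 lower. Kcnj10, the Kir4.1 potassium channel that keeps the glial membrane at the voltage uptake needs, measured 1042 and 1087 in ctrl, against 1451 and 1377 in shOGT (log2 fold change 0.41 ± 0.06; limma adjusted p = 0.00467). Slc4a4, a sodium bicarbonate carrier, measured 12276 and 12556 against 13800.3 and 15789 (0.25 ± 0.05; adjusted p = 0.0338). Gja1, the gap junction protein connexin 43, fell from 3889 ± 158 to 3391 ± 86.3 (-0.20 ± 0.04; adjusted p = 0.0368) and Aldh1l1, a folate enzyme used as an astrocyte marker, from 7982 ± 79.6 to 7018 ± 22.6 (-0.19 ± 0.03; adjusted p = 0.0158). The antisense gene Gm15756 shares 11.1% of the exon bases of Aldh1l1. The list holds further astrocyte genes such as Gfap (0.33 ± 0.14) and Aqp4 (-0.33 ± 0.09), neither of which passed (limma adjusted p of 0.234 and 0.0671). The 7 listed astrocyte markers are all among these 15 genes. Of the 7, 2 fell, again Gja1 and Aldh1l1, and 0 rose. Slc1a2 fell and Glul rose, and the part of the astrocyte genes in these results was not tested. The oligodendrocyte lineage markers Pdgfra and Gpr17 fell as well, from 295 ± 10.8 to 134 ± 3.43 and from 224 ± 18.1 to 121 ± 13.1, and their part was not tested either.

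For each of the 4 called genes, the 3 genes with the most similar profile were sought among 11071 other genes with a mean of at least 100. Likeness was the Euclidean distance between log2(value + 1) profiles over the 4 libraries, each centred on its own mean, so that 0 is an identical profile. Nearest to Slc1a2 were Iqcb1, Rasa1, a GTPase-activating protein for Ras, and the sialyltransferase St6galnac5, at distances of 0.0575 to 0.0619 and with log2 fold changes of -0.57, -0.63 and -0.68. Nearest to Glul were Ddit4l, Cpt1c and Scg3, at 0.0187 to 0.0241 and with 0.42, 0.44 and 0.40. Nearest to Slc38a2 were the fatty acid elongase Elovl6, Tmem167 and the desaturase Scd1, at 0.00813 to 0.0159 and with -0.35, -0.35 and -0.36. Nearest to Slc38a3 were Purb, the acyl-CoA synthetase Acsbg1 and Mia3, at 0.00888 to 0.0137 and with 0.15, 0.15 and 0.15. With 4 libraries in 2 groups such a distance reflects mostly the size of the group difference.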

How the data were processed

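Gene expression was measured by RNA sequencing in 2 ctrl and 2 shOGT libraries, grouped by the sample titles. Each library has a deposited table of 1 signal value for each gene. The authors' processing notes name the genome build mm10, while the aligner, counter, annotation, normalization and use of strand are not given in the sources. Within a library 100% of the deposited signal values were whole multiples, within 0.01, of 1 step (0.943 to 1.06), as reads divided by 1 factor per library would be. They were used as deposited, and no count model was run.

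Symbols, positions and lengths came from GENCODE M21 on GRCm38 (25242 identifiers matched, 19 did not). Genes that reached a value of 1 in 2 or more libraries were tested with limma 3.58.1 in R 4.3.3 on log2(value + 1), with a variance trend and Benjamini-Hochberg adjustment over all 21829 genes. A fold change on this scale understates the change of low genes. The members and lists were chosen with earlier results of these data known. Named are the 9 members and Ogt, the called genes of each list or otherwise the 2 with the smallest p, and the 3 most similar genes of each called member. Other genes were named after their values were seen. Some listed genes are not reported here by name. The replicate number was not used as a block, because it is not stated to mark a shared culture. In a later check, same-numbered libraries did not deviate together (correlation 0.02 over 11080 genes). Alternatives are given in the closing section.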

Additional observations from a re-analysis of the deposited data

How the results depend on the processing

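The counts of called genes, 1060 of all tested genes, 4 of the 9 and 13 of the other 90, moved with several settings, and the cause was not tested. Without a filter, with quantile normalization and without the variance trend all of these counts were 0 in limma, with 4302, 3998 and 2763 of all genes and 4, 4 and 3 of the 9 at an unadjusted p under 0.05. Leaving out 1 library in turn gave 0 to 0 for each count, with 2484 to 3389 of all genes and 4 to 5 of the 9 at an unadjusted p under 0.05. A minimum of 10 gave 1955 called genes and 21 of the others, and the same 4 of the 9. With the replicate block the counts were 2302 and 27, and 4 of the 9 as without it; the labels do not say that a number marks a shared culture. No setting reversed the sign of a called member. Slc38a1 alone changed sign, to 0.0047 with libraries rescaled to equal totals and 0.0081 with quantile normalization. Equal totals moved the split of all calls from 427 higher and 633 lower to 593 and 585. The tests on whole reads with edgeR and DESeq2 were not run. The member with the lowest depth was Slc1a5, at 196 to 237 steps a library.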

Other observations

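The hexamers GCTATC and GTACCC, picked out in an earlier analysis of these data, were counted on the sense strand of the longest annotated 3' UTR of each gene. Of the tested genes, 15118 had such a 3' UTR in a protein-coding transcript, among them 612 called lower and 409 called higher. The others were left out. At least 1 match was in 54.9% of the 612 genes called lower, 29.6% of the 409 called higher and 29.2% of all 15118. Median 3' UTR lengths were 1566, 1731 and 1148.5 bases. Since the hexamers came from these same data, matches in genes that fell are only described here. Slc1a2 held 7 matches in 9250 bases, beside a median of 2 in the 136 genes of like length (0.8 to 1.25 times), of which 84.6% held at least 1. Slc38a2 held 2 matches in 2735 bases, where 48.6% of 2148 genes of like length held any. Slc38a1 held 0 in 5293 bases, where 69.5% of 765 such genes held any. Glul and Slc38a3, the 2 members that rose, held 0, where 33.1% and 27.8% held any, and so did Slc1a5 (12.6%). Slc1a3, Slc1a4 and Glud1 held 1 each (39.9%, 41.4% and 33.0%). The hairpin sequence was not used here, and the part of these matches in the results was not tested.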
